A study of Mus musculus with 12 samples.

Results

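The genes described here encode receptors for serotonin, dopamine, noradrenaline and acetylcholine. They were chosen by name from the deposited tables: every gene whose symbol begins with Htr1 to Htr7, the dopamine receptors Drd3, Drd4 and Drd5, the adrenoceptors (Adra and Adrb), the muscarinic receptors Chrm1 to Chrm5 and the nicotinic subunits (Chrna, Chrnb, Chrnd, Chrne and Chrng). The rule used no measured value and found 48 of the 48526 genes listed. Of these, 47 are protein-coding, and Chrna1os is an antisense RNA named after Chrna1. RNA had been measured in the cortex of untreated C57Bl/6 mice, either TAU58/2 transgenic mice or non-transgenic controls, at 3 and at 10 months of age, with 3 libraries in each of the 4 groups. TAU58/2 mice carry human tau with the P301S mutation, driven in neurons by a Thy1 promoter. The labels number the samples of a group without saying that each came from a separate animal, so p-values measure the spread between these samples, which may in part be technical.

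Monoamines and acetylcholine reach the cortex along long axons from small groups of neurons in the brainstem and basal forebrain, so the cortex holds mainly the receptors and few of the cells that make the transmitters. Most of the receptors couple to G proteins: the Gq-coupled ones (alpha1, M1, M3, M5 and 5-HT2) raise intracellular calcium, the Gs-coupled ones (beta, D5, 5-HT4, 5-HT6 and 5-HT7) raise cyclic AMP, and the Gi/o-coupled ones (alpha2, M2, M4, D3, D4, 5-HT1 and 5-HT5) lower it. Nicotinic and 5-HT3 receptors are instead cation channels built of 5 subunits. Muscle fibres use their own set of nicotinic subunits.

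Promoter sequence is shown for 4 of these genes. Chrm3 had the highest median level of all 48, Htr5a was above 0 in every library, Htr1a had non-overlapping groups at 10 months, and Adra1b had the lowest GC content (42.3%) among the 10 tested members with a promoter window. Each stretch holds the bases upstream of both the RefSeq start and the GENCODE start, from RefSeq's GRCm38.p6 sequence, 5′ to 3′ on the gene's strand, with any motif match in capitals. The Chrm3 stretch is chr13:10360848-10361053 on the minus strand, that of Htr5a is chr5:27841697-27841946 on the plus strand, that of Htr1a is chr13:105443443-105443638 on the plus strand, and that of Adra1b is chr11:43901238-43901487 on the minus strand.
Chrm3: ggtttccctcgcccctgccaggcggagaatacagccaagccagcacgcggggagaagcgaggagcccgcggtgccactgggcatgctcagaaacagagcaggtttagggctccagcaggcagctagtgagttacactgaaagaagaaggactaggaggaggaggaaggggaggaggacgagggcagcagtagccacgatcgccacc
Htr5a: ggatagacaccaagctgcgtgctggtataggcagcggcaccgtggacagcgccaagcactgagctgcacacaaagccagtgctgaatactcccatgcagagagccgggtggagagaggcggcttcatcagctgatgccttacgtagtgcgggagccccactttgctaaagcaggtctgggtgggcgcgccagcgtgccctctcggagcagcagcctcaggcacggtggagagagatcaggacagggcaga
Htr1a: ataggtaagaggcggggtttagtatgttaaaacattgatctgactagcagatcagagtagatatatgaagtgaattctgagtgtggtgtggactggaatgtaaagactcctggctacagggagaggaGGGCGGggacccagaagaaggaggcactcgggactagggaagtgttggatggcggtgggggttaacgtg
Adra1b: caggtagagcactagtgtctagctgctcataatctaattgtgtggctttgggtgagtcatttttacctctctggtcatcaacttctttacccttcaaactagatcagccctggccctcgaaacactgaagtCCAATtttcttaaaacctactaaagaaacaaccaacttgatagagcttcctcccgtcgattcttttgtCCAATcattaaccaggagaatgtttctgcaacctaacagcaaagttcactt
The capitals mark 1 GC box in Htr1a and 2 CCAAT boxes in Adra1b. Motifs were searched on both strands: the TATA box (TATAAA), the CCAAT box (CCAAT), the GC box (GGGCGG), the cAMP response element (TGACGTCA), the EGR1 site (GCGGGGGCG, which can overlap a GC box) and a fragment of the REST element (TCAGCACC).

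Over windows from 250 bases before to 50 bases after the RefSeq start, 36 of the 48 genes had a match in the table. For each of these genes only the window nearest to its GENCODE start was used, at most 32203 bases away (Chrna9). The median GC content of these windows was 57.3%, against 52.7% over all 32851 windows. Those cover 27025 genes, some with several windows, so the 2 sets were built differently. A GC box was present in 18 of 36 (50%), against 35.7% of all windows. A TATA box was present in 2 of 36 (5.56% against 13.6%) and a CCAAT box in 11 (30.6% against 37.4%). The cAMP response element occurred in 0 of 36 windows (1.79% of all), the EGR1 site in 1, that of Chrna7 (2.91% of all), and the REST site fragment in 1, that of Htr1f (1.65% of all). The 13 genes with a window that were listed at 0 in every library had a median GC content of 52.0%, and 3 of them (23.1%) held a GC box. These are matches of letters and were not tested.

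The libraries summed to 125933 to 158077 FPKM (fragments scaled to transcript length and library size) and listed 12828 to 13914 genes above 0. How many fragments lie behind a value is unknown; counting intervals are therefore left out, and an exact 0 is reported only as listed at 0. At 3 months, Mapt (mouse tau, whose row can also collect fragments of the transgene) was 6.64 to 12.0 FPKM in the libraries labelled control and 43.3 to 47.6 in those labelled transgenic. At 10 months it did not follow the labels, with 42.7, 8.13 and 9.08 FPKM in control 1 to 3 and 42.6, 12.4 and 3.31 in transgenic 1 to 3. Thy1, whose promoter drives the transgene, was 105 to 140 FPKM against 410 to 441 at 3 months, and 115 to 314 against 114 to 172 at 10 months. Genotype is therefore given as labelled. The 10-month transgenic 1 library held pituitary markers at a summed 13480 FPKM, against at most 53.8 in the other 11. Markers of cortical excitatory neurons summed to 223 to 716 FPKM over the 12 libraries and those of inhibitory neurons to 172 to 713. Each age has its own deposited table, so age and table cannot be told apart.

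Most receptor mRNAs had low FPKM. Each library listed 16 to 23 of the 48 genes above 0, against 12828 to 13914 of all 48526 genes. The share above 0 was thus no lower than over all genes. At 1 FPKM or more, each library listed 6 to 11 of the 48. Their FPKM summed to 23.7 in the library with the least (10-month control 1) and 59.1 in that with the most (10-month transgenic 2). In all 12 libraries 17 of the 48 were listed at 0, and 31 never reached 1 FPKM. The same shares over all genes were not counted. By summed level, adrenoceptors (median over libraries 11.4 FPKM, range 3.87 to 16.0) and muscarinic receptors (10.8, range 0.836 to 27.9) lay above serotonin receptors (6.43, range 4.65 to 12.1), nicotinic subunits (4.10, range 1.69 to 11.7) and the 3 dopamine receptors (0.382, range 0 to 0.856). The ranges of the first 4 classes overlapped. In the plot of class sums, the muscarinic receptors vary most between libraries.

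**Figure D1:**
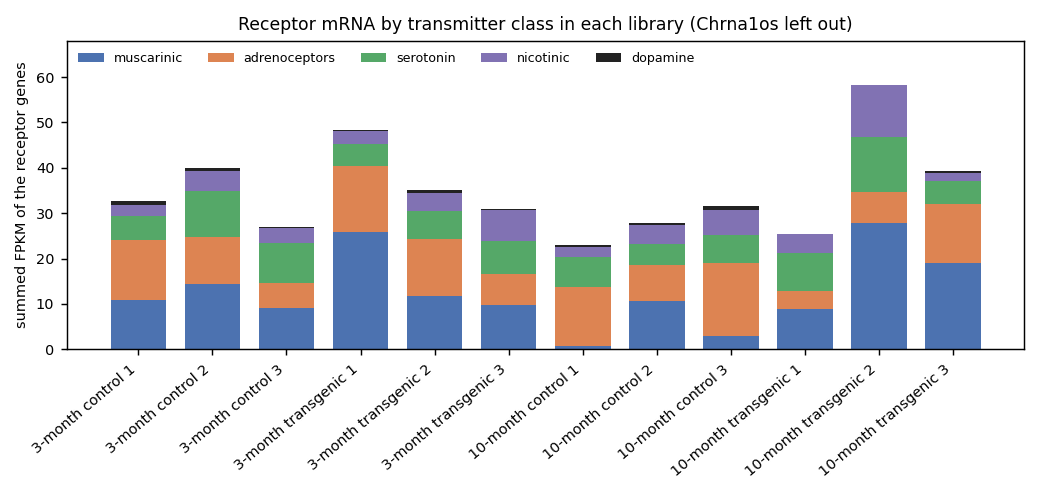
Summed FPKM of the receptor genes in each of the 12 libraries, stacked by transmitter class (1 bar per library, Chrna1os left out). The muscarinic sum ran from 0.836 FPKM in the 10-month control 1 library to 27.9 in the 10-month transgenic 2 library, and dopamine receptors never passed 0.856.

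Acetylcholine acts through 5 muscarinic receptors, of which Chrm3 and Chrm1 carried nearly all the signal. Chrm3 (chr13:9875486-10360847, minus strand, GRCm38) encodes the Gq-coupled M3 receptor and had the highest median of all 48 genes, 8.54 FPKM. At 3 months it was 8.09, 11.1 and 8.78 FPKM in the controls and 7.04, 8.63 and 8.66 in the transgenic libraries, or 9.32 ± 1.58 and 8.11 ± 0.928 (SD, n = 3 each). The 10-month values were 0.394, 9.90 and 0.297 FPKM in the controls and 8.46, 8.88 and 0.183 in the transgenic libraries. Chrm3 was thus above 7 FPKM in 9 libraries and below 0.4 in 3, with no value between, and the 3 low libraries were all 10 months old but carried both genotype labels. The age difference in controls was -2.90 on the log2(FPKM + 0.1) scale (SE 1.43), and limma's adjusted p was 0.994 (unadjusted 0.0703).

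Chrm1 (chr19:8663789-8683587, plus strand) encodes the M1 receptor, the main postsynaptic muscarinic receptor of cortical pyramidal cells. At 3 months it was 2.79, 3.11 and 0.399 FPKM in the controls and 18.7, 2.84 and 0.780 in the transgenic libraries. The 10-month controls held 0.403, 0.677 and 2.60 FPKM and the 10-month transgenic libraries 0.468, 19.1 and 18.9. The 3 libraries at 18.7 FPKM or more were all labelled transgenic and the other 9 were at 3.11 or less, yet the other 3 transgenic libraries lay within the range of the controls. Mapt in those 3 high libraries was 47.6, 12.4 and 3.31 FPKM. The transgenic minus control difference was 2.54 (log2, SE 1.54) at 10 months and 1.13 (SE 1.54) at 3 months, with limma adjusted p of 0.969 and 1. Averaged over both ages it was 1.84 (unadjusted p = 0.124, adjusted p = 0.975 by limma). High values of Chrm1 and Chrm3 coincided in 2 of these 3 libraries, while in the 10-month transgenic 3 library Chrm1 was 18.9 FPKM and Chrm3 0.183.

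The remaining muscarinic genes were close to 0. Chrm5, which encodes the receptor found mainly on midbrain dopamine neurons, reached at most 0.242 FPKM. Chrm2, which encodes an inhibitory autoreceptor, reached at most 0.246 FPKM, and Chrm4, its Gi/o-coupled relative, was listed at 0 in all 12 libraries. Markers of excitatory neurons had their lowest sum (223 FPKM) in the 3-month control 3 library, where Chrm3 was 8.78 FPKM. Camk2a was 92.3 FPKM in that library, against 246 to 443 in the others. Slc17a7 was 102 FPKM there, against 98.2 to 233, and Neurod6 was 0.994, against 0 to 27.3. Tbr1 was 18.6, and it and the remaining markers on the list lay within their ranges elsewhere. Whether Chrm3 follows these markers was not tested. In bulk tissue, fewer cells of a type and less RNA per cell cannot be told apart.

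Noradrenaline receptors were the other abundant class, led by the inhibitory Adra2c and the Gq-coupled Adra1b. Adra2c (chr5:35278319-35281763, plus strand), one of the alpha2 receptors that limit transmitter release, was 7.79, 5.13 and 0 FPKM in the 3-month controls and 8.05, 5.49 and 5.94 in the 3-month transgenic libraries. At 10 months it was 7.32, 0 and 5.02 FPKM in the controls and 0, 5.62 and 8.44 in the transgenic libraries. It was either at 5.02 FPKM or more or listed at 0, and the 3 zeros fell in 3 groups. Adra1b (chr11:43774606-43901210, minus strand) was 5.16, 2.56 and 2.49 FPKM in the 3-month controls and 5.14, 7.00 and 0 in the 3-month transgenic libraries. The 10-month values were 3.59, 4.20 and 1.97 FPKM in the controls and 2.18, 0 and 2.88 in the transgenic libraries. Both zeros were in libraries labelled transgenic, and the ranges of the groups overlapped at both ages.

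Adra2a (chr19:54044151-54048982, plus strand) encodes another alpha2 receptor, a target of clonidine and guanfacine. At 10 months it was 0.818, 2.29 and 1.53 FPKM in the controls (1.55 ± 0.735, SD, n = 3) and 0, 0.296 and 0 in the transgenic libraries, so the groups did not overlap. At 3 months it was 0.0171, 1.44 and 1.88 FPKM in the controls and 0.581, 0.00417 and 0.0451 in the transgenic libraries, which overlapped. The 10-month difference was -3.27 (log2, SE 1.22), with unadjusted p = 0.0231 and adjusted p = 0.969 by limma. Its size depended on the pseudocount, from -5.52 with 0.01 to -1.18 with 1. Averaged over both ages the difference was -2.49 (SE 0.86, unadjusted p = 0.0164, adjusted p = 0.975 by limma), and the change of the difference with age was -1.57 (SE 1.73, adjusted p = 0.987). The authors' deposited table gives Adra2a p = 0.0384 and q = 0.854 at 10 months. Adra2a passed the filter only through its control means (1.11 FPKM at 3 months and 1.55 at 10 months).

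Adra1d was listed at 0 in 11 libraries and at 5.57 FPKM in the 10-month control 3 library, which alone carried it past the filter. Of the untested adrenoceptors, Adrb1 was above 0 in only 2 libraries, at 1.23 FPKM (3-month control 2) and 0.864 (10-month control 3), and Adra1a, Adra2b and Adrb3 reached at most 0.175, 0.124 and 0.169.

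Serotonin receptors were led by Htr5a, and Htr1a was the member with the smallest p at 10 months. Htr5a (chr5:27842149-27855088, plus strand), a Gi/o-coupled receptor of brain neurons, was 2.72, 2.15 and 3.38 FPKM in the 3-month controls and 2.25, 2.37 and 2.73 in the 3-month transgenic libraries. The 10-month controls held 2.24, 0.210 and 3.03 FPKM and the 10-month transgenic libraries 4.15, 2.80 and 1.60. Of the 12 values, 11 lay between 1.60 and 4.15 FPKM, and the 10-month control 2 library stood apart at 0.210.

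Htr1a (chr13:105443639-105448122, plus strand) encodes the Gi/o-coupled 5-HT1A receptor, an inhibitory receptor of pyramidal cells and the autoreceptor of serotonin neurons. At 10 months it was listed at 0 in all 3 controls and at 1.68, 2.08 and 1.83 FPKM in the transgenic libraries (1.86 ± 0.201, SD, n = 3). At 3 months it was above 0 in 1 library of each label, at 2.49 FPKM in control 2 and 2.53 in transgenic 3. The gene was therefore either listed at 0 (7 libraries) or between 1.68 and 2.53 FPKM (5 libraries), in all 4 groups together. Limma gave the 10-month difference unadjusted p = 0.0178 and adjusted p = 0.969, and its change with age unadjusted p = 0.0736 and adjusted p = 0.987. No fold is given against a group at 0. Htr1a passed the filter only through its 10-month transgenic mean, so it entered the test only by being high in that group. The authors' deposited table lists p = 0.000197 and q = 0.311 for Htr1a at 10 months. It also lists a ratio of 2.84, which cannot be a plain ratio of these FPKM, since all 3 controls were listed at 0.

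Among the 5-HT2 receptors, Htr2a, the target of classical hallucinogens, was 1.20, 0.922 and 0.190 FPKM in the 3-month controls and 0.681, 0.805 and 0.304 in the 3-month transgenic libraries. At 10 months it was 1.07, 2.75 and 0.236 FPKM in the controls and 1.12, 1.24 and 0.190 in the transgenic libraries. In every group the library numbered 3 was the lowest, at 0.190 to 0.304 FPKM. Htr2c, which the choroid plexus expresses strongly, was 0.353, 2.82 and 3.39 FPKM in the 3-month controls and 0.294, 1.90 and 0.647 in the 3-month transgenic libraries. The 10-month values were 0.915, 0 and 1.05 FPKM in the controls and 0, 3.97 and 0.00864 in the transgenic libraries. The 8 choroid plexus markers, nearly all of it Ttr, summed to 5.24 to 731 FPKM in the 3-month controls, 5.30 to 304 in the 3-month transgenic libraries, 15.2 to 32.1 in the 10-month controls and 31.3 to 440 in the 10-month transgenic libraries. The highest sum was in the 3-month control 1 library, where Htr2c was 0.353 FPKM, and the lowest in control 2, where Htr2c was 2.82; the part of choroid plexus in the values of Htr2c was not tested. Htr2b was listed at 0 in every library.

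The other serotonin receptors fell below the filter. Htr1b, a presynaptic autoreceptor, was 0, 0.305 and 0 FPKM in the 3-month controls and 1.20, 0.713 and 0.578 in the 10-month controls. In the transgenic libraries it was 0.785, 0 and 0.429 FPKM at 3 months and 0.282, 0 and 0 at 10 months. With no filter on low values, which brought 27 of the 48 genes into the test, its 10-month difference was -2.52 (log2, unadjusted p = 0.0233, adjusted p = 0.978 by limma). In that fit the change of the difference with age was -3.69 (unadjusted p = 0.0196, adjusted p = 0.982). The authors' deposited table gives Htr1b p = 0.0326 and q = 0.854 at 10 months. The Gs-coupled Htr6 and Htr7 reached 1.04 and 1.19 FPKM. Htr5b and Htr1f stayed at or below 0.470 and 0.593 FPKM, and Htr1d and Htr4 were listed at 0 throughout. Of the channel-forming 5-HT3 subunits, Htr3a was listed at 0 in all 3-month libraries and reached 0.528 FPKM at 10 months, and Htr3b was listed at 0 throughout.

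The 3 dopamine receptors that the rule takes were low, and other dopamine receptors were not analysed here. Drd5, the Gs-coupled D5 receptor, was 0.856, 0.527 and 0.223 FPKM in the 3-month controls and 0.231, 0.602 and 0.171 in the 3-month transgenic libraries. The 10-month controls held 0.350, 0.387 and 0.742 FPKM and the 10-month transgenic libraries 0, 0 and 0.371. Its highest 10-month transgenic value lay inside the control range. With no filter its 10-month difference was -1.77 (log2, unadjusted p = 0.0430, adjusted p = 0.978 by limma). Drd4 reached at most 0.0561 FPKM and Drd3 was listed at 0 in every library.

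Nicotinic subunits were represented by Chrna4 and Chrnb2, which together form the most common high-affinity nicotine receptor of the brain. Chrna4 (chr2:181018380-181043546, minus strand) was 1.89, 3.41 and 2.15 FPKM in the 3-month controls and 2.40, 2.60 and 2.59 in the 3-month transgenic libraries. At 10 months it was 1.99, 2.48 and 3.61 FPKM in the controls and 2.33, 4.31 and 1.49 in the transgenic libraries. It was the steadiest of the 13 tested genes, with a highest value 2.90 times its lowest, and its genotype difference was 0.07 at 3 months and -0.08 at 10 months (log2, SE 0.42 each). Chrnb2 (chr3:89746195-89764632, minus strand) was 0.464, 1.19 and 1.07 FPKM in the 3-month controls and 0.424, 1.20 and 3.95 in the 3-month transgenic libraries. The 10-month values were 0.119, 1.14 and 1.46 FPKM in the controls and 1.39, 6.94 and 0.198 in the transgenic libraries. Chrnb2 overlaps Adar on the opposite strand, and the sources used here do not say whether counting used strand.

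The other nicotinic genes were low or listed at 0. Chrna7, the homomeric receptor subunit, reached 0.546 FPKM and Chrnb3 was above 0 in a single library, at 0.531. Chrna2, Chrna3, Chrna5, Chrna6, Chrna9, Chrna10 and Chrnb4 were listed at 0 in all libraries. Of the 5 muscle-type subunits, Chrna1, Chrnd, Chrne and Chrng were at 0 throughout and Chrnb1 reached 0.0149 FPKM. Skeletal muscle markers summed to at most 0.316 FPKM. The antisense RNA Chrna1os was above 0 in every library (median 0.678 FPKM, range 0.171 to 0.955) and does not overlap Chrna1 in the GENCODE annotation.

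**Figure D2:**
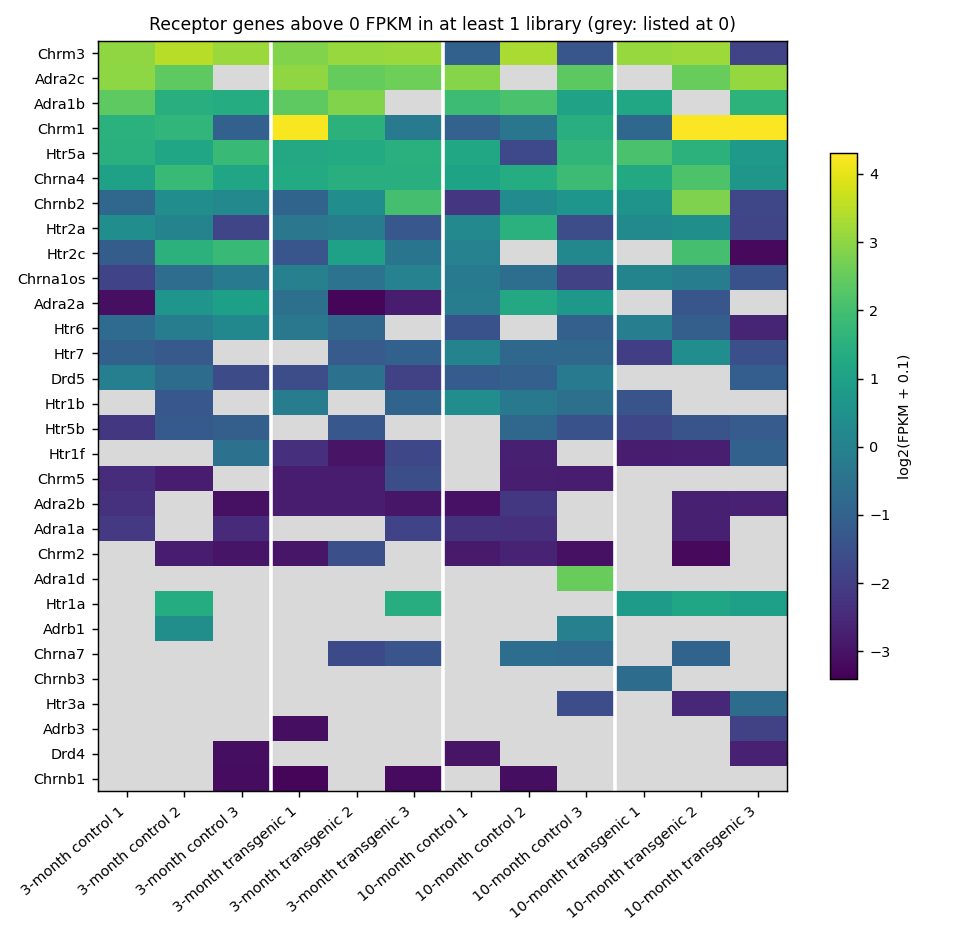
Level of receptor genes above 0 in at least 1 library (rows, ordered by median over libraries) in each of the 12 libraries (columns), as log2(FPKM + 0.1), with grey for values listed at 0. Chrm3, Htr5a, Chrna4, Chrm1, Chrnb2, Htr2a and Chrna1os are above 0 in all 12 libraries, and grey cells fall in every group.

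The test took genes averaging 1 FPKM or more in 1 group or several, which left 13 receptor genes in and 35 out. Of all 48526 genes listed, 9846 were tested. None of the 13 passed an adjusted p of 0.05 in limma's fit over 9846 genes. For the genotype effect at 10 months, 0 of 13 passed, against 0.0102% of all genes tested, and 2 (Htr1a and Adra2a) had unadjusted p under 0.05, against 4.4% of all genes. The same 2 had groups that did not overlap, against 8.26% of all genes. Htr1a passed the filter only through its 10-month transgenic mean, and Adra2a only through its control means. Both counts of 2 thus rest on genes that entered the test through the groups where they were high. The 10-month differences were positive in 7 and negative in 6 of the 13, with a median of 0.05 against 0.01 over all genes tested. At 3 months, 0 of 13 passed the adjusted threshold (0.0406% of all genes), 0 had unadjusted p under 0.05 (3.39%) and 0 had groups that did not overlap (7.98%). For the change of the genotype difference with age, 0 of 13 passed (0.0508% of all genes) and 0 had unadjusted p under 0.05 (3.32%).

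Age gave the same count. In controls 0 of 13 passed (0.0305% of all genes), 1 had unadjusted p under 0.05 (4.19%; 0 to 2 over the alternatives) and 1 had ages that did not overlap (10.1%). In the libraries labelled transgenic 0 passed (0.0203%), 0 had unadjusted p under 0.05 (4.31%) and 0 had ages that did not overlap (9.43%). For the genotype effect averaged over both ages, 0 passed (0.0508%) and 1 (Adra2a) had unadjusted p under 0.05 (3.75%). None of these counts was tested against the shares over all genes.

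**Figure D3:**
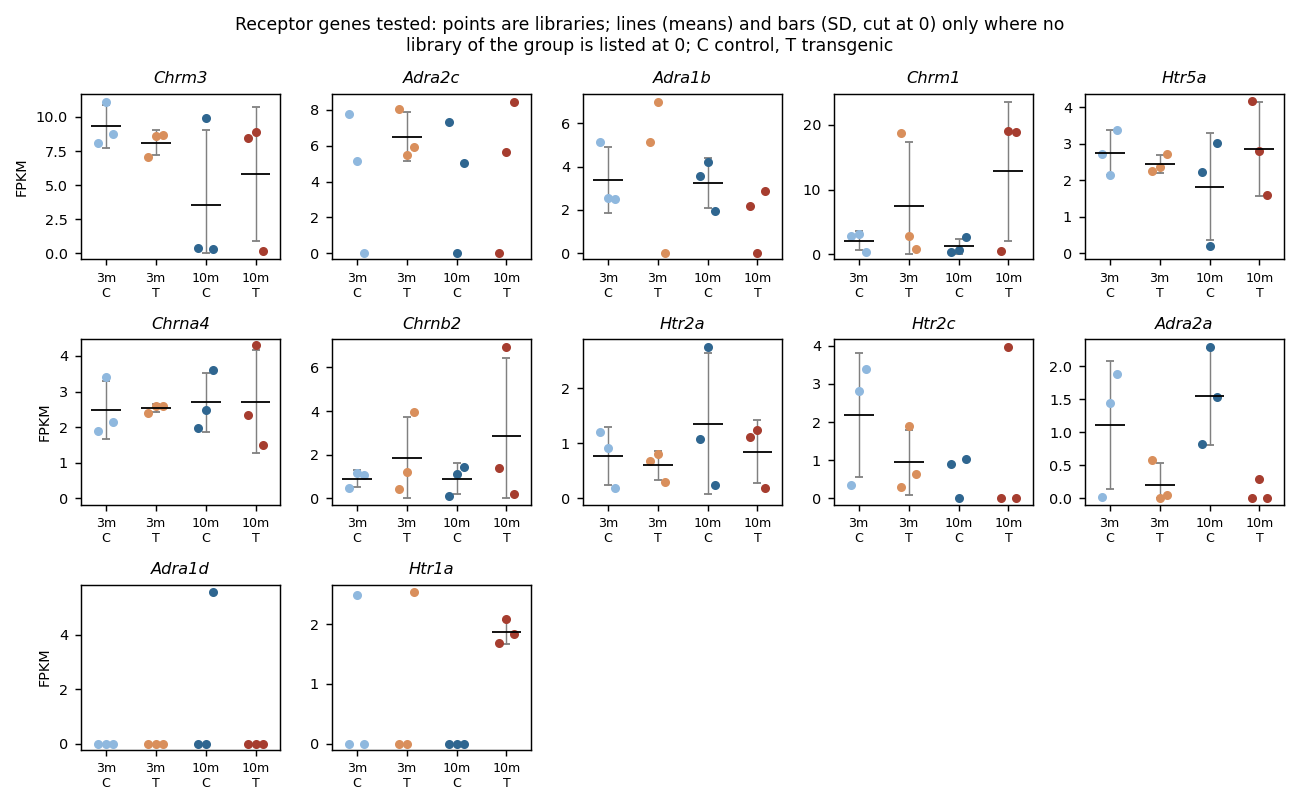
FPKM of 12 tested receptor genes by age (3m, 10m) and genotype label (C control, T transgenic), 1 point per library, with the mean and SD (n = 3) only for groups with no library listed at 0. Chrm3, Chrm1, Adra2c and Htr1a each sit at either a high or a low level, and Chrna4 stays between 1.49 and 4.31 FPKM in every group.

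**Figure D4:**
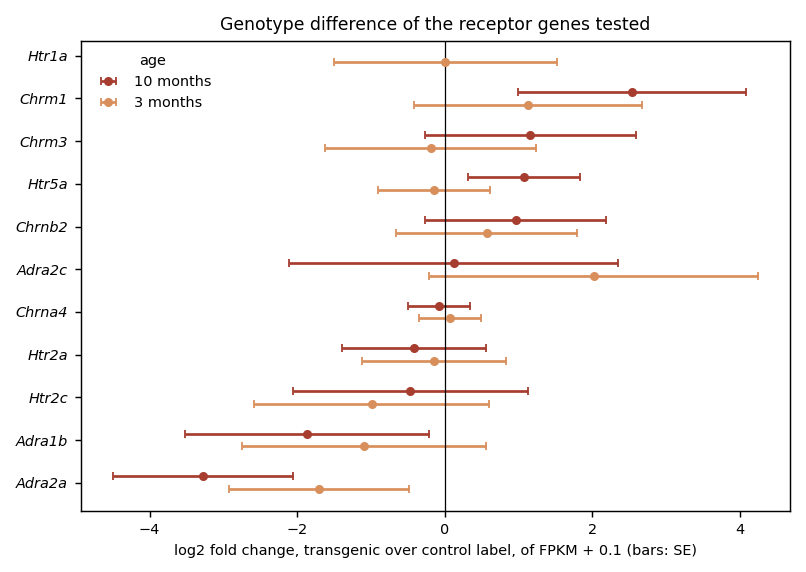
Transgenic over control difference of tested receptor genes in log2(FPKM + 0.1) at 10 months and at 3 months, with bars for the SE from limma and no point where a group is listed at 0 in all its libraries (both ages of Adra1d and the 10-month value of Htr1a). Adra2a at 10 months (-3.27) lies farthest from 0, and Chrna4 has the shortest bars (SE 0.42).

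Values of several receptor genes varied widely between libraries, in part within 1 group, such as Chrm3 in the 10-month controls (0.297 to 9.90 FPKM). The shares that follow span all 12 libraries, so they also hold differences between groups. Of the 13 tested, 7 (53.8%) were listed at 0 in at least 1 library, against 25.5% of all genes tested, and 7 (53.8%) had a highest value over 10 times the lowest value above 0, against 26.5%. Among genes with a mean of 1 to 10 FPKM, 3 of 8 receptor genes (37.5%) had a zero, against 25.6% of 6133 genes, and 5 of 8 (62.5%) had such a range, against 27.7%. These shares are a description, and no test was made of them.

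Some of the genes share a gene structure that the rule did not use. Many monoamine and muscarinic receptor genes carry their coding sequence in a single exon, and 7 of the 48, among them Adra2b, Adra2c, Chrm4, Chrm5, Drd5 and Htr1a, have 1 exon in every transcript of the GENCODE annotation. All 7 were listed at 0 in at least 1 library, and Chrm4 in all. The 3 that were tested, Adra2c and Htr1a among them, each had a zero, against 4 of the 10 tested members with more exons. Over all protein-coding genes tested, 167 of 185 single-exon genes (90.3%) were listed at 0 in at least 1 library, against 1820 of 8947 others (20.3%). The gap held at higher levels: with a mean above 10 FPKM it was 82.9% of 35 single-exon genes against 3.72% of 2554 others. At 10 months, the control and transgenic values were fully separated in 7 of 185 single-exon genes (3.78%), Htr1a among them, and in 8.47% of the others. The part of gene structure in the values of Htr1a was not tested.

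**Figure D5:**
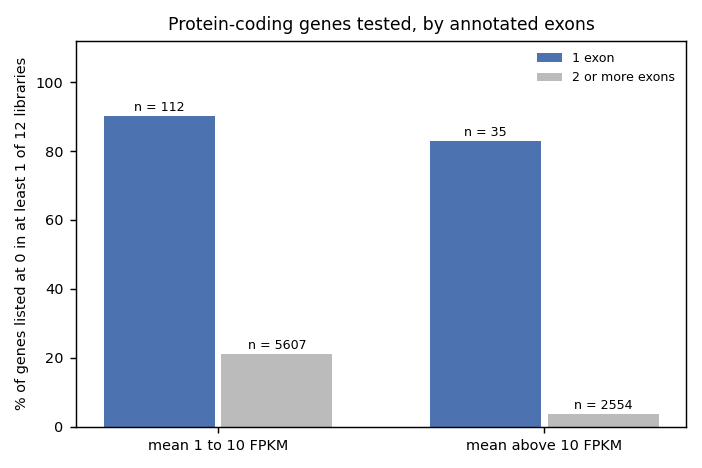
Share of tested protein-coding genes listed at 0 in at least 1 of 12 libraries (vertical axis, percent), split by mean FPKM and by whether every annotated transcript has 1 exon or not; n is the number of genes. The single-exon bars stand at 90.2% and 82.9%, and the others at 21.1% and 3.72%.

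Genes that make, carry or break down the transmitters were examined from lists, as were the partners of the receptors. Of 17 genes for monoamine synthesis, transport and breakdown, 4 were tested, among them Maoa, Maob and Slc29a4 (2 oxidases and a transporter), and of 5 for acetylcholine 1 was (Ache, which breaks it down). Chat, Dbh, Slc5a7, Slc6a2, Slc6a3, Slc6a4 and Tph2, taken as markers of the projecting neurons, were listed at 0 in all 12 libraries. Of the other markers of these neurons, Th was above 0 only in the 10-month transgenic 1 library (0.533 FPKM). Slc18a3 was listed at 0 only in the 10-month control 1 library and reached 0.254 FPKM, and Fev reached 0.0429. None of these lists had a gene past the adjusted threshold in limma for either genotype effect.

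Of 20 G protein subunits 18 were tested and 0 passed the adjusted threshold for the genotype effect at either age, with 9 positive and 9 negative differences at 10 months and 14 positive and 4 negative at 3 months. Their medians were 0.01 and 0.27, against 0.01 and 0.02 over all genes tested. Of all genes tested, 50.9% were positive at 10 months and 52.1% at 3 months. Gng7, a gamma subunit of Golf, was 1.75, 0.607 and 1.80 FPKM in the 3-month controls. The 3-month transgenic libraries held 15.1, 11.3 and 21.7 FPKM, a difference of 3.53 (SE 1.28, unadjusted p = 0.0206, adjusted p = 1 by limma). At 10 months Gng7 overlapped between the labels. It was 0.652, 1.26 and 15.5 FPKM in the 10-month controls and 15.2, 4.26 and 0.463 in the 10-month transgenic libraries. Gng12, another gamma subunit, differed by 1.72 at 10 months (SE 0.60, adjusted p = 0.969). At 3 months Gng12 overlapped between the labels, at 0.443 to 2.83 FPKM in the controls and 2.07 to 2.68 in the transgenic libraries. Of 28 tested effectors such as adenylyl cyclases, kinases and channels, 0 passed. At 10 months 8 were positive and 20 negative (median -0.24, against 0.01 over all genes tested). At 3 months 13 were positive and 15 negative (median -0.02, against 0.02). These splits were not tested against those over all genes. Adcy3, an adenylyl cyclase, differed by -1.04 at 10 months (SE 0.37, unadjusted p = 0.0190, adjusted p = 0.969 by limma). Without the 10-month transgenic 1 library, which held pituitary markers, it differed by -0.64. At 3 months Adcy3 overlapped between the labels, at 4.12 to 7.45 FPKM in the controls and 4.01 to 6.39 in the transgenic libraries.

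Of 17 tested arrestins, receptor kinases and RGS proteins (which shorten G protein signals), 0 passed, with 8 positive and 9 negative at 10 months and 9 and 8 at 3 months. Rgs20, which acts on Gi-family subunits, was 3.84, 1.79 and 3.93 FPKM in the 3-month controls and 1.38, 1.38 and 1.91 in the 3-month transgenic libraries. The 10-month controls held 3.44, 3.95 and 2.79 FPKM and the 10-month transgenic libraries 1.25, 1.05 and 1.29. The difference was -1.42 (SE 0.37) at 10 months and -0.92 (SE 0.37) at 3 months, and -1.17 averaged over both ages, with limma adjusted p of 0.969, 1 and 0.760. Of 9 tested chaperones and modulators of nicotinic and 5-HT3 receptors, 0 passed, with 6 positive and 3 negative at 10 months and 3 and 6 at 3 months. Ly6e, a member of the Ly6 family that includes nicotinic modulators, was 9.14, 10.2 and 11.7 FPKM in the 10-month controls. The 10-month transgenic libraries held 24.1, 20.6 and 16.0 FPKM, a difference of 0.95 (SE 0.24, unadjusted p = 0.00290, adjusted p = 0.969 by limma). The highest of these values was in the 10-month transgenic 1 library, which held pituitary markers. Leaving out single libraries gave differences of 0.81 to 1.11. At 3 months the Ly6e difference was 0.27 (SE 0.24, unadjusted p = 0.290 by limma).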

How the data were processed

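RNA of 12 mouse cortex samples was sequenced after ribosomal RNA depletion with a stranded kit, per the labels' protocols. The values are FPKM per gene and library, deposited by the authors in 2 tables, 1 per age. The tools named are StringTie 1.3.0, HISAT2 2.0.4, R 3.4.2 and SAMtools 0.0.19, and the builds GRCm38 and mm10, per the submitters' processing notes; the sources used here give neither the order of steps nor the annotation. Per the file headers, the deposited tables also hold p-values, q-values and a fold change both as a ratio and on the log2 scale; these were only quoted as the authors' deposited table. Whole reads could not be recovered: between 6.73% and 9.38% of low genes shared the commonest ratio to the 10-month control 1 library, and the relative depth read from it was 1.07 to 1.38.

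Members and lists were chosen with earlier results of these data known. FPKM were taken as log2(FPKM + 0.1), and the test took the 9846 genes averaging 1 FPKM or more in any of the 4 groups. Limma 3.58.1 (R 4.3.3; eBayes with trend and robust) fitted group means to the 12 libraries together, with Benjamini-Hochberg adjustment over all genes tested and a threshold of 0.05. Every log2 difference is on that scale, which understates changes of low genes. Fits were first tested on simulated data, in which low genes were left out and the spread of each gene was capped. That check does not cover genes with zeros or as wide a spread as several receptor genes had. None of the 66 library pairs was identical. Genes are named where tested, where a value reached 1 FPKM, where groups did not overlap or an unadjusted p was under 0.05; of the lists, up to 2 genes with the smallest p were considered per genotype effect, and those with an unadjusted p under 0.05 are given. Some results are not reported here. Coordinates come from GENCODE vM21 on GRCm38, in which all 48 genes matched by identifier. Marker lists covered cortical cells and neighbouring tissues: microglia summed to 90.4 to 151 FPKM, endothelial and mural cells to 23.8 to 41.5, astrocytes to 324 to 635, oligodendrocytes to 238 to 640, striatum to 19.8 to 69.2, thalamus and habenula to 5.51 to 14.0, hippocampus to 10.9 to 38.2, and choroid plexus to 5.24 to 731. Alternatives were the replicate number as a block, library weights, plain eBayes, quantile normalization, size factors, pseudocounts of 1 and 0.01, a 5 FPKM filter, every gene above 0 in 3 or more libraries (called no filter), fits within an age, and fits that dropped a library.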

Additional observations from a re-analysis of the deposited data

How the results depend on the processing

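The number of receptor genes past the adjusted threshold was 0 in all 6 comparisons and under every alternative run. The number with unadjusted p under 0.05 at 10 months was 4 with no filter (Htr1a, Adra2a, Htr1b and Drd5, of 27 tested) and 0 with a filter at 5 FPKM, which left 3 receptor genes; leaving out single libraries gave 1 to 2. For age in controls this number, 1 in the analysis reported, was 0 in 8 of 12 fits with a library left out. It was 0 with either other pseudocount or the 5 FPKM filter, and 2 with no filter or the replicate block. For the change of the genotype difference with age and for age in the transgenic libraries, it was 0 in the analysis reported. Both became 1 with no filter or without the 3-month transgenic 3 library. For the genotype effect at 3 months it was 0, and 1 without the 3-month control 1 library. Averaged over both ages it was 1, and 0 to 2 over the alternatives. Shares over all genes were not counted for the alternatives, so these counts cannot be set against them. Over the alternatives limma's adjusted p at 10 months ran from 0.760 to 1 for Htr1a and from 0.773 to 1 for Adra2a. Without the 10-month transgenic 1 library, which held pituitary markers, Adra2a differed by -2.94 (adjusted p = 0.943). Same-numbered libraries of different groups correlated at -0.12 to 0.09 in their deviations from group means over genes. Differently numbered ones correlated at -0.13 to 0.15. No pairing by number was seen over all genes, and these correlations cannot settle it for single genes. With the replicate number as a block, 0 receptor genes passed in each comparison and 2 had unadjusted p under 0.05 at 10 months. Depth is unknown, so how far a value listed at 0 lies below detection cannot be stated.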
